A study of Sus scrofa with 24 samples.

Results

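Lipoprotein lipase (LPL) and the proteins that fold it, carry it, inhibit it and take up what it releases were examined in the longissimus dorsi, a long back muscle, of 24 pigs. The group was set by 9 gene symbols: LPL, CD36, APOE, VLDLR, GPIHBP1, LMF1, ANGPTL4, SLC27A1 and SLC27A4. The deposited table lists 8 of the 9 by symbol, as 16 transcripts, among 12017 genes and 22154 transcripts in all. CD36 is not listed by symbol, and the unnamed locus that lies over it is described separately. All 8 genes, and 15 of their 16 transcripts, had a mean of at least 0.5 FPKM and entered the tests.

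The animals were Duroc x Luchuan crossed pigs, taken from 265 F1 offspring of 8 boars and 112 sows, kept on a single farm and diet and slaughtered at an age of 210 ± 6 days. From these, 12 animals labelled high and 12 labelled low in intramuscular fat (IMF) content were profiled. Muscle was sampled 25 minutes after death and its polyA RNA was sequenced as read pairs of 150 bases, 1 library per animal. The fat content of each animal is not used here, and the labels used here give no sex.

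LPL is secreted by fat cells and muscle fibres and acts on the inner wall of capillaries, where it cuts fatty acids from the triglycerides of circulating lipoproteins. LMF1 lets the enzyme fold in the endoplasmic reticulum, GPIHBP1 carries it across the endothelial cell and holds it at the capillary surface, and ANGPTL4 inactivates it. APOE and VLDLR bind the lipoproteins that carry the substrate, and CD36, SLC27A1 and SLC27A4 bring the released fatty acids into the cell. In muscle these fatty acids serve as fuel or are stored as fat.

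Summed FPKM, the transcript level per kilobase and per unit of sequencing depth, was 351119 to 415572 per library, and the estimated depth was 32.9 to 40.8 megareads. Listed muscle fibre markers took 6.34% to 13.3% of the summed FPKM in high IMF and 6.41% to 15.7% in low IMF libraries. A pair of libraries stood apart: the summed FPKM of these markers was 22246 in high IMF animal 7, against 30471 to 51316 in the other high IMF animals, and 23508 in low IMF animal 10, against 45931 to 60898 in the other low IMF animals. Low IMF animal 10 also had the highest adipocyte marker sum of the low IMF animals, 266 FPKM. Without both libraries the limma log2 fold change was 0.73 for LPL (adjusted p = 0.102) and 0.87 for APOE (adjusted p = 0.0914). Of the 15 muscle fibre markers 6 had a positive log2 fold change and the median was -0.15 (3 and -0.20 with TMM scaling). Over all genes 73.4% were positive and the median was 0.077. TTN and MYLPF were lower at an unadjusted limma p under 0.05, as were 0.893% of all genes. MB, the myoglobin gene, is listed at 0 in 4 animals and at most at 2.35 FPKM.

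LPL and APOE had the largest differences between the groups, and the 95% intervals of the other 6 genes included 0. The mean of LPL was 1.73 times as high in high as in low IMF muscle, and that of APOE 1.69 times. VLDLR, LMF1, SLC27A1 and SLC27A4 had ratios of 1.12, 1.10, 1.04 and 1.004, and GPIHBP1 and ANGPTL4 had 0.873 and 0.874. None of the 8 genes passed the test over all genes, which was limma on log2(FPKM + 1) with Benjamini-Hochberg adjustment at 0.05. Across the 11757 genes tested, 0.0425% were called higher and 0.00851% lower in high IMF.

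At an unadjusted p under 0.05, LPL and APOE were the 2 of 8 on the higher side, where 6.79% of all genes lay, and none was on the lower side, where 0.893% lay. Of the 8 log2 fold changes 6 were positive, with a median of 0.094, against 73.4% positive and a median of 0.077 over all genes. With TMM scaling (trimmed mean of M values), 4 of 8 were positive and the median was -0.0039, against -0.00086 over all genes. Throughout, the shares of all genes are those without TMM scaling, so counts with TMM scaling have no such share beside them. The sign of SLC27A1 and of SLC27A4 turned negative under TMM scaling, at -0.02 and -0.07. In bulk muscle, fewer cells of a type and less RNA per cell cannot be told apart.

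**Figure D1:**
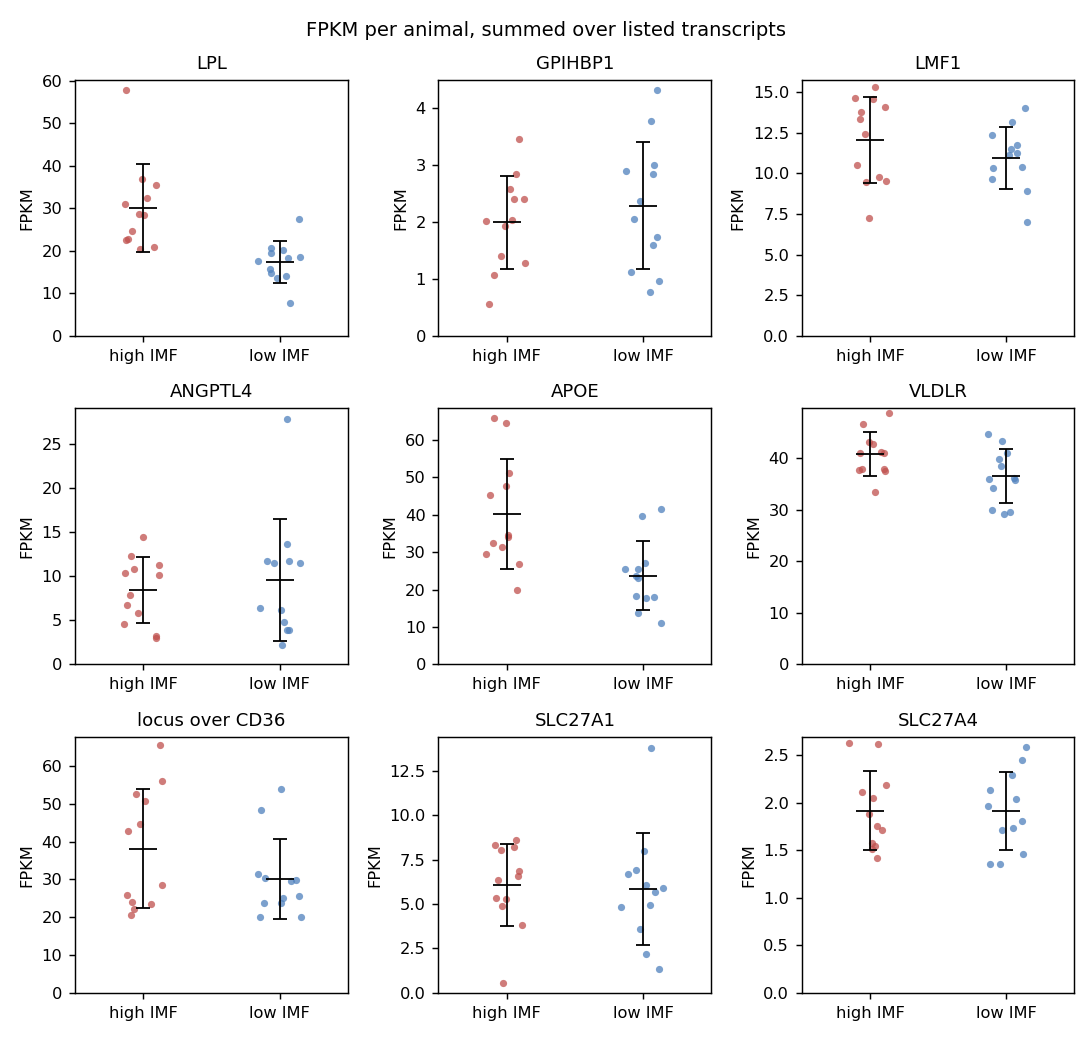
FPKM of each gene (vertical axes, starting at 0) in 12 high IMF and 12 low IMF animals, 1 point per animal, with the mean (wide bar) and SD (error bar). In LPL each of the 12 high IMF points lies above 18.04 FPKM, the low IMF median, while the groups overlap throughout in GPIHBP1, ANGPTL4, SLC27A1 and SLC27A4.

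The enzyme itself, LPL, is listed as 1 reference transcript of 10 exons and 4619 bases on chromosome 14, from 4104769 to 4136593 on the plus strand of Sscrofa11.1. In high IMF muscle LPL was lowest at 20.5, had a median of 28.6 and was highest at 57.7 FPKM. In low IMF muscle it was lowest at 7.77, had a median of 18.04 and was highest at 27.6 FPKM. The groups overlapped, since 7 of 12 high IMF animals lay above every low IMF animal and 10 of 12 low IMF animals lay below every high IMF animal.

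LPL exceeded the low IMF median in each of the 12 high IMF animals, a pattern that 1.68% of the genes tested shared. LPL averaged 30.1 ± 10.3 FPKM in high and 17.4 ± 4.83 FPKM in low IMF muscle (SD, n = 12 each). The limma log2 fold change was 0.75 (SE 0.164, 95% interval 0.41 to 1.09, unadjusted p = 0.000107, adjusted p = 0.105). LPL ranked 12 of 11757 by p. The call depended on weighting: with array weights, which count less consistent libraries less, the log2 fold change was 0.78 and the adjusted p = 0.0294. Leaving out 1 animal at a time gave adjusted p from 0.0527 (without low IMF animal 10) to 0.222.

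High IMF animal 5 had the highest LPL, 57.7 FPKM, and the next animal, high IMF animal 7, had 36.8 FPKM. Without high IMF animal 5 the limma log2 fold change was 0.66 with an adjusted p = 0.130. The lowest LPL of all, 7.77 FPKM, was in low IMF animal 3, which was also the lowest of 24 in APOE and in VLDLR. Low IMF animal 4 was the only low IMF animal above 25 FPKM, at 27.6 FPKM.

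The animals' identifiers start with DLC1512 or DLC1601, which gives 2 sets of 12 animals (6 high IMF and 6 low IMF in each); the labels do not say what these digits stand for. Within DLC1512, LPL averaged 26.6 ± 6.42 FPKM in high and 16.5 ± 2.69 FPKM in low IMF animals (SD, n = 6 each). Within DLC1601 it averaged 33.6 ± 12.8 FPKM in high and 18.3 ± 6.49 FPKM in low IMF animals (SD, n = 6 each). The difference was thus in the same direction in both sets, with limma log2 fold changes of 0.65 and 0.86. The interaction of group and set, a difference of 0.21 in log2 fold change, did not pass in limma (adjusted p = 0.998).

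Markers of fat cells, which make LPL, lay on the same side. The median log2 fold change of the 13 adipocyte markers in the table was 0.80, against 0.077 over all genes. Of the 13, 12 were above 0, as were 73.4% of all genes. On the higher side 10 had an unadjusted limma p under 0.05, where 6.79% of all genes lay. With TMM scaling 12 were positive, the median was 0.69 and 10 were higher at that p. The median over all genes with that scaling was -0.00086. The others, PLIN1, CFD and PLIN4, had limma log2 fold changes of -0.09, 0.17 and 0.19. The summed FPKM of the 13 markers was 171 to 348 in high IMF (median 231) and 110 to 266 in low IMF (median 149), with each of the 12 high IMF sums over 149. LEP and TUSC5 passed over all genes. LEP averaged 0.888 FPKM in high and 0.175 FPKM in low IMF muscle, and ADIG 0.944 and 0.185 FPKM. Both thus reached the filter of 0.5 FPKM only through their high IMF values. PPARG is listed at 0 in 1 low IMF animal and ADIG in 4 low IMF animals. The part of these fat cell transcripts in the LPL and APOE values was not tested.

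LMF1, the folding factor of LPL, is listed as 3 transcripts on chromosome 3, from 40841289 to 40929181 on the plus strand. In high IMF muscle it was lowest at 7.28, had a median of 12.9 and was highest at 15.3 FPKM, and in low IMF muscle these values were 6.998, 11.2 and 14.1 FPKM. The groups overlapped over almost their whole range, although 4 high IMF animals lay above every low IMF animal. By limma the log2 fold change was 0.12 (SE 0.117, 95% interval -0.12 to 0.36, adjusted p = 0.825).

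GPIHBP1, the endothelial carrier of LPL, is listed as 2 transcripts on chromosome 4, from 1252750 to 1257247 on the minus strand. The lowest value in high IMF muscle was 0.560, the median 2.02 and the highest 3.45 FPKM, and in low IMF muscle these values were 0.772, 2.21 and 4.31 FPKM. The low IMF range lay slightly higher, and 5 of 12 high IMF animals were above the low IMF median. The limma log2 fold change was -0.11 (SE 0.183, 95% interval -0.48 to 0.27, adjusted p = 0.915). GPIHBP1 was covered by 55.1 to 445 estimated reads per library, the lowest minimum of the 8 genes.

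Markers of the endothelium, where GPIHBP1 is made, had a share of positive values near that of all genes. Of 16 measured, 12 were positive with a median of 0.11 (8 and 0.0048 with TMM scaling). Over all genes 73.4% were positive and the median was 0.077. Of the 16, 1 (CDH5) was higher at an unadjusted limma p under 0.05, as were 6.79% of all genes. None of these markers passed over all genes. Their summed FPKM was 95.7 to 146 in high and 87.5 to 138 in low IMF muscle, and none is listed at 0.

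ANGPTL4, the inhibitor of LPL, which fasting and fatty acids induce, is listed as 1 transcript of 7 exons and 1954 bases on chromosome 2, from 70905765 to 70913026 on the minus strand. In high IMF muscle it was lowest at 2.99, had a median of 9.05 and was highest at 14.5 FPKM, and in low IMF muscle these values were 2.17, 8.97 and 27.8 FPKM. The medians nearly coincided and the spread was wide, with the highest of 24 animals 12.8 times the lowest. By limma the log2 fold change was -0.05 (SE 0.299, 95% interval -0.66 to 0.57, adjusted p = 0.981), and 0.11 without low IMF animal 10, the animal at 27.8 FPKM. The part of that library's marker levels in its ANGPTL4 and SLC27A1 values was not tested. The interval covers changes in either direction.

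Set against its partners within each animal, a ratio that library scaling does not touch, LPL had a higher median in high IMF muscle against ANGPTL4, GPIHBP1 and LMF1. The ratios were chosen after the values were seen and are given without a test. LPL over ANGPTL4 was 1.98 to 9.48 (median 3.04) in high and 0.665 to 12.7 (median 1.77) in low IMF animals, and in each of the 12 high IMF animals it exceeded 1.77. LPL over GPIHBP1 had a median of 15.9 in high and 7.32 in low IMF animals, with 11 of 12 above the low IMF median. LPL over LMF1 had a median of 2.21 in high and 1.55 in low IMF animals. LPL over APOE had medians of 0.713 in high and 0.684 in low IMF animals.

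**Figure D2:**
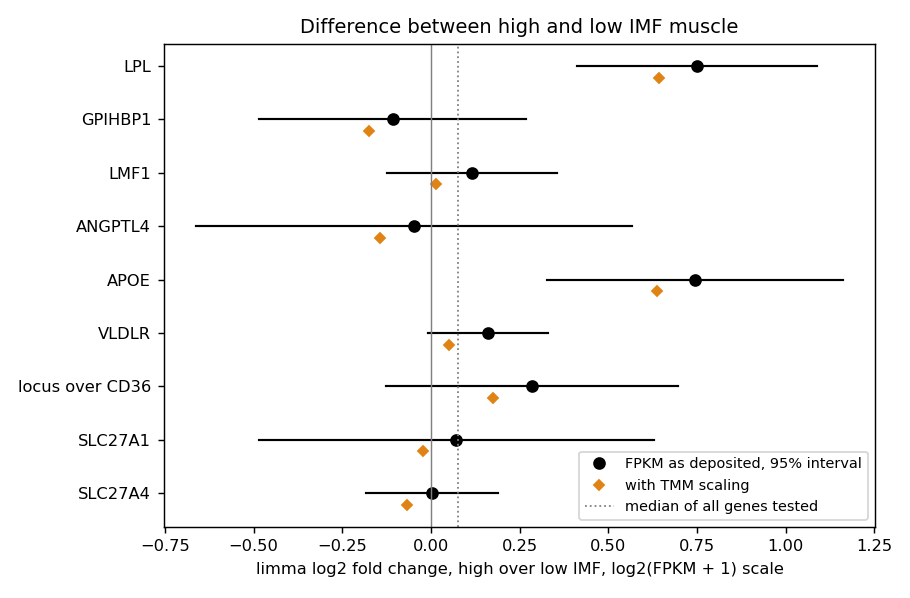
Limma log2 fold change of each gene, high over low IMF, on the log2(FPKM + 1) scale (horizontal axis), as dots with 95% intervals, and with TMM scaling as diamonds; the dotted line is the median of all genes tested, 0.077. The unadjusted intervals of LPL (0.41 to 1.09) and APOE (0.33 to 1.16) lie above 0, and those of the other genes and the locus over CD36 include 0.

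APOE, the apolipoprotein that ligates lipoprotein remnants to their receptors and that fat cells and macrophages make, is listed as 1 transcript of 4 exons and 1450 bases on chromosome 6, from 51372241 to 51375617 on the plus strand. The lowest value in high IMF muscle was 20.0, the median 34.2 and the highest 65.7 FPKM, and in low IMF muscle these values were 11.06, 23.4 and 41.5 FPKM. The groups overlapped, with 11 of 12 high IMF animals above the low IMF median and 5 above every low IMF animal.

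APOE averaged 40.2 ± 14.7 FPKM in high and 23.7 ± 9.27 FPKM in low IMF muscle (SD, n = 12 each). The limma log2 fold change was 0.74 (SE 0.203, 95% interval 0.33 to 1.16, unadjusted p = 0.00109, adjusted p = 0.233). Leaving out 1 animal gave adjusted p from 0.0743 to 0.391. The difference in means was larger in set DLC1601, where APOE averaged 47.1 ± 17.7 FPKM in high and 21.0 ± 10.9 FPKM in low IMF animals (SD, n = 6 each). In set DLC1512 it averaged 33.2 ± 6.43 FPKM in high and 26.5 ± 7.17 FPKM in low IMF animals (SD, n = 6 each). The limma interaction was 0.82 in log2 fold change (unadjusted p = 0.0452), which did not pass over all genes (adjusted p = 0.998).

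Of 10 measured macrophage markers 8 were positive with a median of 0.20 (7 and 0.15 with TMM scaling). Over all genes 73.4% were positive and the median was 0.077. None of the macrophage markers had an unadjusted limma p under 0.05. Their summed FPKM was 14.6 to 49.8 in high and 8.14 to 56.1 in low IMF muscle, and CD163 is listed at 0 in 3 animals. Their part in the APOE values was not tested.

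VLDLR, the receptor for triglyceride-rich lipoproteins, was the most abundant of the 8 genes and the steadiest across animals. It is listed as 4 reference transcripts on chromosome 1, from 219175738 to 219210338 on the minus strand. In high IMF muscle it was lowest at 33.4, had a median of 41.1 and was highest at 48.7 FPKM, and in low IMF muscle these values were 29.1, 36.1 and 44.8 FPKM. The groups overlapped: 11 of 12 high IMF animals exceeded the median of low IMF, and 3 low IMF animals were below every high IMF animal. By limma the log2 fold change was 0.16 (SE 0.0823, 95% interval -0.01 to 0.33, unadjusted p = 0.062, adjusted p = 0.661), and 0.05 with TMM scaling.

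SLC27A1, the fatty acid transport protein of muscle and fat cells that insulin brings to the cell surface, is listed as 3 reference transcripts on chromosome 2, from 60203378 to 60235683 on the minus strand. The lowest value in high IMF muscle was 0.550, the median 6.48 and the highest 8.57 FPKM, and in low IMF muscle these values were 1.37, 5.79 and 13.8 FPKM. The medians lay close together while single animals lay far out, the highest 25.002 times the lowest. High IMF animal 1 had the lowest value, and low IMF animal 10 the highest. The limma log2 fold change was 0.07 (SE 0.271, 95% interval -0.49 to 0.63, adjusted p = 0.969).

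SLC27A4, a transport protein of the same family, is listed as 1 transcript of 13 exons and 2881 bases on chromosome 1, from 268773861 to 268788207 on the plus strand. In high IMF muscle it was lowest at 1.42, had a median of 1.82 and was highest at 2.63 FPKM, and in low IMF muscle these values were 1.36, 1.89 and 2.59 FPKM. The ranges were almost the same. By limma the log2 fold change was 0.0040 (SE 0.0906, 95% interval -0.18 to 0.19, adjusted p = 0.994), the narrowest interval but that of VLDLR. That rank depended on the log2(FPKM + 1) scale, which shrinks differences at low levels. With 0.1 in place of 1 added to FPKM, the SE was 0.130, against 0.126 for LMF1 and 0.083 for VLDLR.

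CD36, the scavenger receptor that takes up long-chain fatty acids in muscle, fat and endothelium, is annotated by RefSeq on chromosome 9 of Sscrofa11.1 from 99685748 to 99782296. The deposited table holds an unnamed locus, MSTRG.15149, on the minus strand from 99684189 to 99782278, and CD36 is the only RefSeq gene that it overlaps. Its 8 transcripts, of which 5 are reference transcripts, were summed; this locus was added after the table had been examined. The lowest value in high IMF muscle was 20.6, the median 35.7 and the highest 65.4 FPKM, and in low IMF muscle these values were 20.0, 27.5 and 53.9 FPKM.

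The groups overlapped at the locus over CD36, with 7 of 12 high IMF animals above the low IMF median. The limma log2 fold change of MSTRG.15149 was 0.28 (SE 0.20, 95% interval -0.13 to 0.70, adjusted p = 0.738). Of the high IMF animals 6 lay between 42.9 and 65.4 FPKM and 6 between 20.6 and 28.5 FPKM. Of the low IMF animals 2 lay at 48.2 and 53.9 FPKM and the other 10 between 20.0 and 31.4 FPKM. In set DLC1512 the locus averaged 37.3 ± 14.9 FPKM in high and 25.7 ± 3.80 FPKM in low IMF animals (SD, n = 6 each). In set DLC1601 it averaged 38.9 ± 17.8 FPKM in high and 34.5 ± 13.6 FPKM in low IMF animals (SD, n = 6 each).

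Levels per length differed widely among the genes. Over all 24 animals VLDLR averaged 38.7 ± 5.15 FPKM, the locus over CD36 34.1 ± 13.7, APOE 31.9 ± 14.6, LPL 23.8 ± 10.2, LMF1 11.51 ± 2.31 and ANGPTL4 9.01 ± 5.48 FPKM (SD, n = 24). SLC27A1 followed with 5.95 ± 2.71, GPIHBP1 with 2.14 ± 0.967 and SLC27A4 with 1.91 ± 0.403 FPKM (SD, n = 24). LPL lay at the 88.2 percentile of the mean FPKM of all genes tested, and GPIHBP1 at 38.3.

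Within animals the order held between LPL and LMF1 and between SLC27A1 and GPIHBP1, with the first above the second in 23 of 24 animals each. It did not hold beyond the spread between VLDLR and the locus over CD36 (15 of 24), that locus and APOE (12 of 24), and GPIHBP1 and SLC27A4 (14 of 24). APOE exceeded LPL, LMF1 exceeded ANGPTL4, and ANGPTL4 exceeded SLC27A1 in 18 of 24 animals each. The coefficient of variation over the 24 animals was 13.3% for VLDLR, 20.1% for LMF1 and 21.1% for SLC27A4, and 43.0% to 60.8% for LPL, GPIHBP1, SLC27A1, APOE and ANGPTL4.

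Among themselves the genes varied largely apart. After each group's mean was removed, the 28 pairs had a median Pearson r of 0.093 (range -0.511 to 0.620, n = 24 animals). Only ANGPTL4 and SLC27A1 passed adjustment over the 28 pairs, with r = 0.620 (permutation p = 0.00121, adjusted p = 0.0339). Their Spearman rho was 0.383 (permutation p = 0.0716, adjusted p = 0.724). Without low IMF animals 4 and 10, the animals farthest from the median of ANGPTL4, r was 0.421 (permutation p = 0.0414, unadjusted). It was 0.495 within high and 0.734 within low IMF animals, and 0.391 within set DLC1512 and 0.768 within set DLC1601, and with TMM scaling r was 0.588 (permutation p = 0.00215, adjusted p = 0.0602), so that no pair passed.

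VLDLR and GPIHBP1 had the most negative coefficient, with r = -0.511 (permutation p = 0.0159, adjusted p = 0.222) and a Spearman rho of -0.523 (permutation p = 0.0123, adjusted p = 0.344). Without low IMF animals 1 and 3 it was -0.545. LPL and APOE, which shared the largest group differences, had r = 0.326 once the group means were removed (permutation p = 0.130, adjusted p = 0.640), and 0.092 without high IMF animal 5 and low IMF animal 3. Their Spearman rho was 0.243 (permutation p = 0.258, adjusted p = 0.724). LPL and ANGPTL4 had r = -0.243 (permutation p = 0.265, adjusted p = 0.740) and a Spearman rho of -0.254 (permutation p = 0.232, adjusted p = 0.724).

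**Figure D3:**
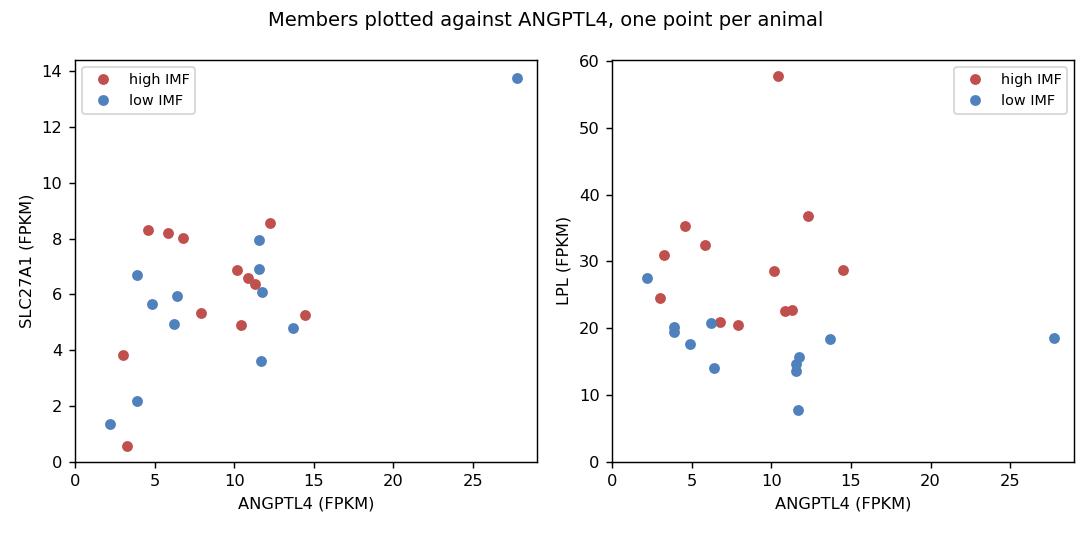
SLC27A1 (left) and LPL (right) against ANGPTL4, all axes in FPKM and starting at 0, with 1 point per animal. Low IMF animal 10, at 27.8 FPKM of ANGPTL4 and 13.8 FPKM of SLC27A1, lies apart in the left panel. Its library also had the lowest muscle fibre marker sum of the low IMF animals, 23508 FPKM. In the right panel all 12 high IMF animals have a ratio of LPL to ANGPTL4 above the low IMF median of 1.77. That ratio was chosen after the values were seen, and its highest value, 12.7, was in low IMF animal 4.

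Transcripts of 4 genes could be compared within the gene, and the assembly divided their reads between isoforms, so isoform values are less certain than sums. None of the 15 tested transcripts passed over the 21405 tested transcripts in limma, where 0.0187% were called higher and 0% lower. At an unadjusted p under 0.05 the transcripts of LPL, APOE and the main transcript of VLDLR were higher, where 5.25% of all transcripts lay, and none was lower, where 1.09% lay.

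The main transcript of VLDLR, ENSSSCT00000044564 with 19 exons and 6420 bases, averaged 30.1 ± 3.77 FPKM in high and 24.3 ± 6.88 FPKM in low IMF muscle (SD, n = 12 each). Its limma log2 fold change was 0.35 (SE 0.144, unadjusted p = 0.0231, adjusted p = 0.710). It held 67.6% to 80.9% of VLDLR in high and 29.8% to 83.3% in low IMF animals. The low shares were those of low IMF animals 2, 3 and 4, at 29.8%, 48.4% and 50.4%. In low IMF animal 2, ENSSSCT00000040999, with 17 exons and 3069 bases, held 62.4%. The mean share was 73.8 ± 3.61% in high and 66.4 ± 15.7% in low IMF animals (SD, n = 12 each, permutation p = 0.132, adjusted over 4 genes p = 0.285).

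SLC27A1 was divided differently in each animal. One of its 3 transcripts held over 60% in 22 of 24 animals, but ENSSSCT00000058221 led in 9 animals, ENSSSCT00000051818 in 8 and ENSSSCT00000058847 in 7. These have 11, 13 and 13 exons and 4556, 4951 and 4959 bases, and all 3 begin and end close together. Each led in both groups: 4 high and 5 low IMF animals, 4 and 4, and 4 and 3. The share of ENSSSCT00000058221 was 34.0 ± 27.1% in high and 37.6 ± 29.2% in low IMF animals (SD, n = 12 each, permutation p = 0.767, adjusted p = 0.767).

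For GPIHBP1, the reference transcript ENSSSCT00000055758 held 59.8 ± 22.7% in high and 70.5 ± 17.97% in low IMF animals (SD, n = 12 each, permutation p = 0.214, adjusted p = 0.285). It was the larger of the pair in 8 high IMF animals and in 11 low IMF animals, of 12 each. LMF1 was the most uniform, with ENSSSCT00000063458 holding 84.98 ± 5.45% in high and 82.0 ± 4.78% in low IMF animals (SD, n = 12 each, permutation p = 0.163, adjusted p = 0.285) and leading in all 24. The short LMF1 transcript added by the assembly, MSTRG.8965.9, averaged 1.18 ± 0.447 FPKM in high and 1.51 ± 0.519 FPKM in low IMF animals (SD, n = 12 each; limma adjusted p = 0.833).

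**Figure D4:**
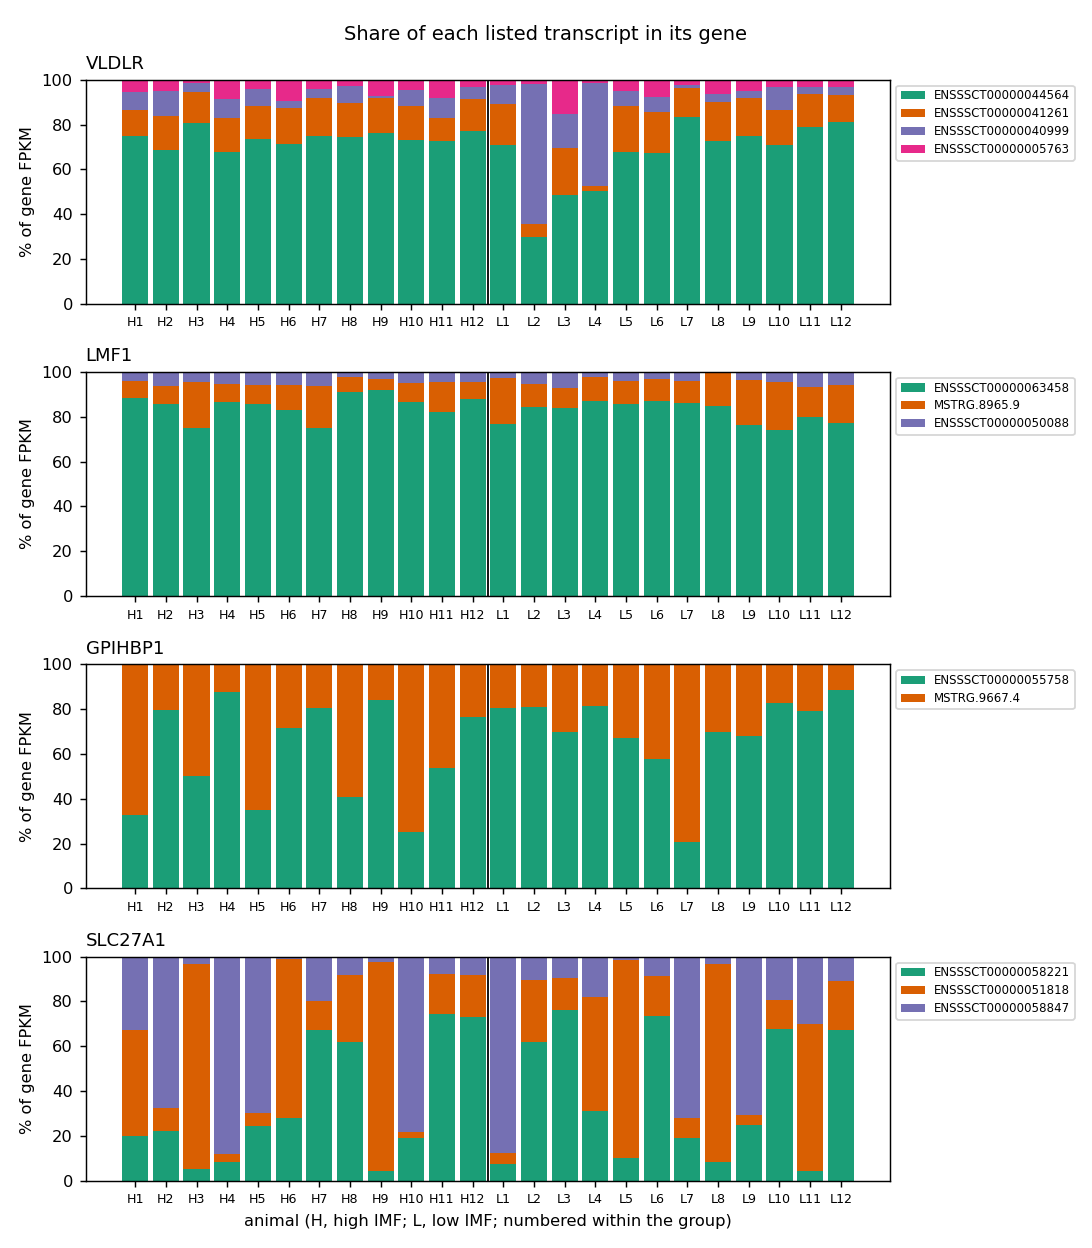
Percent of a gene's summed FPKM held by each listed transcript (vertical axes, 0 to 100), in each high IMF (H) and low IMF (L) animal. In SLC27A1 the leading transcript changes from animal to animal, in VLDLR low IMF animals 2, 3 and 4 stand apart, and in LMF1 1 transcript leads in all 24 animals.

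The authors' deposited table gives a fold change of low over high IMF and a p-value per transcript. In the authors' deposited table LPL had a fold of 0.641 (p = 0.000676) and APOE 0.639 (p = 0.0082), both below 1 and so higher in high IMF. The authors' deposited table gives the main VLDLR transcript 0.83 (p = 0.0526) and MSTRG.8965.9 of LMF1 1.194 (p = 0.0377). The first of the 3 q-values in the authors' deposited table was 0.607 for LPL and 0.821 for APOE. It was 0.858 for the main VLDLR transcript and 0.823 for MSTRG.8965.9. The q-values that followed were 0.365 and 0.192 for LPL and 0.637 and 0.334 for APOE.

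Other genes of the pathway were read from lists. Of 16 further partners of LPL 8 were tested, all above 0 on the log2 scale with a median of 0.09, close to the 0.077 over all genes, of which 73.4% were positive, and none had an unadjusted limma p under 0.05. With TMM scaling 5 of these were positive and the median was 0.02. FURIN, a protease that cleaves LPL and ANGPTL4, had 4.94 ± 1.85 FPKM in high and 3.74 ± 1.95 FPKM in low IMF muscle (SD, n = 12 each; limma log2 fold change 0.38, adjusted p = 0.704). HSPG2, which encodes the matrix proteoglycan perlecan, had 26.3 ± 7.83 FPKM in high and 22.7 ± 8.77 FPKM in low IMF muscle (SD, n = 12 each). The proteases PCSK6 and PCSK5 had limma log2 fold changes of 0.08 and 0.10.

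Of the fatty acid binding and activation genes the 12 tested were all above 0 on the log2 scale, as were 73.4% of all genes, their median was 0.22, against 0.077 over all genes, and 4 had an unadjusted limma p under 0.05 on the higher side, where 6.79% of all genes lay. With TMM scaling 10 were positive, the median was 0.13 and 3 had an unadjusted p under 0.05. The median over all genes with that scaling was -0.00086. FABP4, which binds fatty acids in fat cells, FABP3, its relative in muscle, DBI, which binds acyl-CoA, and ACSL5, an acyl-CoA synthetase, had the smallest p. FABP4 also stands in the adipocyte list. DBI had 66.1 ± 11.99 FPKM in high and 50.7 ± 10.7 FPKM in low IMF muscle (SD, n = 12 each; limma log2 fold change 0.38, SE 0.114, adjusted p = 0.303). ACSL5 had 1.78 ± 0.312 FPKM in high and 1.40 ± 0.487 FPKM in low IMF muscle (SD, n = 12 each; limma log2 fold change 0.23, adjusted p = 0.608). FABP4 and FABP3 had limma log2 fold changes of 0.80 (adjusted p = 0.223) and 0.71 (adjusted p = 0.329), so no gene of this list passed.

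Among 11 tested lipoprotein receptors and other apolipoproteins, 8 were positive with a median of 0.04 (5 and -0.0060 with TMM scaling). Over all genes 73.4% were positive and the median was 0.077. Of the 11, 1 was higher at an unadjusted limma p under 0.05, as were 6.79% of all genes. With TMM scaling none was higher and 1 was lower at that p, for which the share of all genes is given only without that scaling. The gene higher without that scaling was LRP1, a receptor for remnants that carry APOE, with 10.4 ± 2.80 FPKM in high and 8.00 ± 3.31 FPKM in low IMF muscle (SD, n = 12 each; limma log2 fold change 0.40, adjusted p = 0.642). APOA1 and APOO had limma log2 fold changes of -0.48 and 0.14. Of the other lipases 4 were tested, and LIPE, hormone-sensitive lipase, which is also in the adipocyte list, had 0.85 (limma adjusted p = 0.288). LIPA, PNPLA2 and MGLL had -0.15, 0.12 and -0.02.

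Of 13 tested genes of caveolae, the membrane pits where CD36 gathers, 8 were positive with a median of 0.04 (5 and -0.03 with TMM scaling). Over all genes 73.4% were positive and the median was 0.077. None of the 13 had an unadjusted limma p under 0.05, while 1 was lower at that p with TMM scaling. The median over all genes with that scaling was -0.00086. EHD2, which holds caveolae at the membrane, had 17.6 ± 2.97 FPKM in high and 14.8 ± 4.50 FPKM in low IMF muscle (SD, n = 12 each; limma log2 fold change 0.27, adjusted p = 0.651). CAVIN4, the muscle cavin, had 15.0 ± 10.8 FPKM in high and 24.9 ± 11.9 FPKM in low IMF muscle (SD, n = 12 each; limma log2 fold change -1.03, SE 0.639, adjusted p = 0.704). No high IMF animal lay above the low IMF median of CAVIN4, and the gene is listed at 0 in 3 animals, high IMF animals 1 and 12 and low IMF animal 4. PACSIN3 and CAVIN2 had 0.20 and 0.12.

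Of 22 tested transcription regulators of these genes 15 were positive, against 73.4% of all genes. Their median was 0.18, against 0.077 over all genes. On the higher side, where 6.79% of all genes lay, 4 had an unadjusted limma p under 0.05. With TMM scaling 13 were positive with a median of 0.08, 2 were higher and 1 was lower at that p. The median over all genes with that scaling was -0.00086. CEBPA, a driver of fat cell formation, had 9.40 ± 2.70 FPKM in high and 5.17 ± 2.78 FPKM in low IMF muscle (SD, n = 12 each; limma log2 fold change 0.81, adjusted p = 0.164). PPARG, the fat cell receptor that activates LPL, had 1.92 ± 0.609 FPKM in high and 1.18 ± 0.558 FPKM in low IMF muscle (SD, n = 12 each; limma log2 fold change 0.45, adjusted p = 0.419), and it also stands in the adipocyte list. NR1H2 and ESRRA had 0.25 and 0.50, with limma adjusted p = 0.626 and 0.642. PPARD and PPARA, the receptors of the family in muscle, each had a limma log2 fold change of 0.20 (unadjusted p = 0.103 and 0.396).

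**Figure D5:**
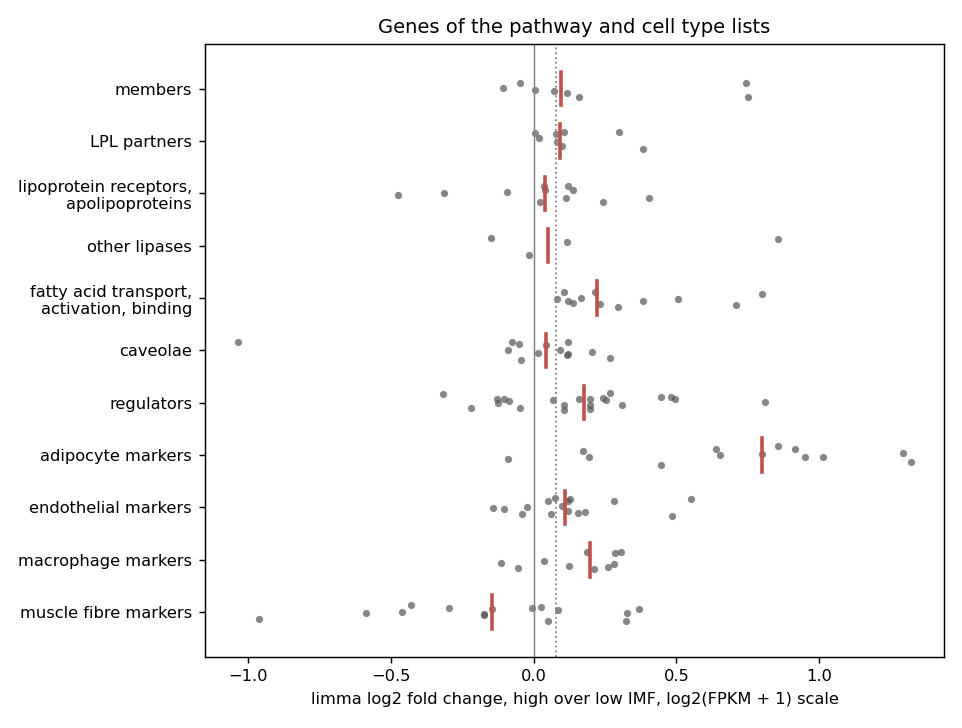
Limma log2 fold change, high over low IMF, on the log2(FPKM + 1) scale (horizontal axis) of each tested gene of a list (points), with the list median (bar); the dotted line is the median of all genes tested, 0.077. The 12 genes of fatty acid transport, activation and binding all lie above 0 (10 of 12 with TMM scaling), with a median of 0.22, and the adipocyte markers have a median of 0.80.

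Genes whose level followed any of these genes across the 24 animals, after removal of the group means, were ranked by Spearman rho among the genes with a symbol and a mean of at least 1 FPKM; 8011 genes were searched, so high coefficients arise among many, and the libraries and their depth are shared. For LPL the first 5 were NEIL1, SEC31B, ELOVL5, HACD2 and HIP1, with rho from 0.797 to 0.759. Their limma log2 fold changes between the groups were 0.19, -0.06, 0.63, 0.51 and 0.10 in that order, with adjusted p = 0.704, 0.924, 0.389, 0.223 and 0.890.

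For APOE the first were ADIRF (0.775) and TSPO (0.774), and for ANGPTL4 the lipid droplet gene PLIN5 (0.788) and the locus listed as ssc-mir-9810 (0.763). They were KLF15 (0.719) and ZNF800 (0.717) for VLDLR, where rho dropped to 0.474 and 0.373 with TMM scaling. They were ROM1 (0.765) and MACF1 (0.666) for GPIHBP1, PLLP (0.737) and PIGT (0.711) for LMF1, ADRM1 (0.733) and TUBA1A (0.727) for SLC27A1, and MCRIP1 (0.804) and MBD3 (0.80) for SLC27A4. For the locus over CD36 they were CAPRIN1 (0.897) and THUMPD1 (0.896).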

How the data were processed

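The authors deposited a single table of FPKM per assembled transcript and animal. No header names the unit, which was read from fractional values and a column of transcript length. Per the submitters' processing notes, the tools and build include HISAT2 2.0.5, StringTie 1.3.3 and Sscrofa11.1; neither their roles nor the annotation release are stated. The authors' deposited fold change, p-values and q-values are named per the file headers.

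Transcripts with the same symbol and chromosome were added up to a gene. Limma 3.58.1 in R 4.3.3 (trend, robust) tested log2(FPKM + 1), which understates changes of low genes, where the mean FPKM reached 0.5. TMM and upper-quartile factors were computed in R by their published formulas. Permutation tests were two-sided, of 100000 resamples each (numpy 2.4.6, Python 3.11.15); correlations over 24 animals were permuted within groups. Depth was inferred from steps of 1 base of coverage in the low values of single-transcript loci, of which 71.2% to 90.7% were whole within 0.05 base, against 27.7% to 50.0% at the next best step. The authors' denominator is unknown, so depths and read estimates are relative. On simulated data made from the 11757 genes, limma recovered 94% of 100 genes changed by 1 on the log2 scale and 50% of 100 changed by 0.5, with 10 false calls. The simulated noise was independent between genes and had no shift common to all genes. Such shares therefore do not give the power of the test on the deposited libraries.

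Each library is 1 animal, and animals carry numbers 1 to 12 per group, in accession order. The genes and lists were chosen with earlier results of these data known. Named genes were the 8 genes and their transcripts, up to 4 per pathway list and 2 per marker list by smallest limma p, and the most alike by Spearman rho, 5 for LPL and 2 for each other gene; others were chosen after their values were seen. RefSeq gene positions on Sscrofa11.1 gave the CD36 locus. No column of per-animal values was left out. Some genes that the naming rule would give are not reported here.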

Additional observations from a re-analysis of the deposited data

How the results depend on the processing

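Over all genes 6 passed the adjusted threshold in limma. That count was 26 with array weights, 21 without both high IMF animal 7 and low IMF animal 10, whose 10 most abundant genes took a smaller share, 0 within set DLC1512 and 0 within set DLC1601, and 3 to 31 when 1 animal was left out, with 31 without low IMF animal 10, 10 without high IMF animal 2 and 3 without high IMF animal 5. With array weights 1 of the 8 genes passed, LPL, at 0.78 (adjusted p = 0.0294). With TMM scaling the limma log2 fold change was 0.64 for LPL (adjusted p = 0.180) and 0.64 for APOE (adjusted p = 0.402). With the level of the Y-linked gene EIF1AY as a term, LPL had 0.75 (limma adjusted p = 0.173) and APOE 0.66 (limma adjusted p = 0.348). Some animals of the same group share the first 9 digits of their identifiers, whose meaning the labels do not give. The main test counts each as a separate animal. With 1 animal kept per 9 shared digits, LPL had 0.78 (limma adjusted p = 0.249) and APOE 0.87 (limma adjusted p = 0.270). LPL, APOE, VLDLR and the locus over CD36 kept their direction under all alternatives run. Log2 fold changes of the other 5 genes, none past the threshold, turned sign as follows; the cause was not tested. GPIHBP1 was 0.017 with 1 animal per 9 shared identifier digits, and LMF1 was -0.021 within set DLC1601. ANGPTL4 was 0.027 with 1 animal per 9 digits, 0.050 without that pair of animals, and -0.18 to 0.11 with 1 animal left out. SLC27A1 was -0.021 under TMM and -0.030 under upper-quartile factors, and -0.054 to 0.26 with 1 animal left out. SLC27A4 was -0.067 under TMM and -0.075 under upper-quartile factors, -0.017 with the level of the Y-linked gene EIF1AY, a stand-in for sex, as a term, -0.040 within set DLC1512, and -0.026 to 0.033 with 1 animal left out. The SLC27A1 transcript ENSSSCT00000051818 was -0.015 with TMM scaling and -0.088 with a pseudocount of 0.1, and the GPIHBP1 transcript MSTRG.9667.4 was -0.0036 with TMM scaling. The difference in share of GPIHBP1 transcript ENSSSCT00000055758 was 3.54 percentage points within set DLC1512. With TMM scaling 0 pairs of genes passed as correlated. No paired analysis was possible because the labels give no replicate numbers that the groups share. GPIHBP1 and SLC27A4 had an estimated 55.1 and 145 reads in their lowest library and 213 and 195 at the median. SLC27A1 and ANGPTL4 had an estimated 90.7 and 147 reads in their lowest library, against 1050 and 666 at the median. At these lowest read numbers, random (Poisson) read sampling alone would give coefficients of variation of 13.5% for GPIHBP1 and 8.31% for SLC27A4. For SLC27A1 and ANGPTL4 it would give 10.5% and 8.24%. The observed coefficients over all animals were 45.2%, 21.1%, 45.5% and 60.8% in that order of genes. The read estimates are relative, and the part of depth in these spreads was not tested.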
